A study of Homo sapiens with 12 samples.

Results

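Chromatin accessibility was compared by ATAC-seq, in which a transposase cuts and tags the DNA it can reach, in cultures of the human prostate cancer line 22Rv1. The members described here are the combination regions shared with enzalutamide alone: regions listed for OSU-ERb-12 plus enzalutamide that overlapped by at least 1 bp a region listed for enzalutamide and no region listed for OSU-ERb-12. They were chosen by these overlaps, so their presence in one list and absence from the other is the rule and not a finding. There were 756 members among the 6248 regions of the combination list, 12.1%, and among 49496 regions in all 3 lists. The other combination regions fell into 261 in all 3 lists, 533 shared with OSU-ERb-12 alone and 4698 in neither single-agent list.

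The 12 samples, all labelled WT as genotype and treated for 6 h, formed 4 groups of 3. One received vehicle, one 1 µM of enzalutamide, one 100 nM of OSU-ERb-12, and one both agents, for which the samples' own labels give no dose. The labels call the samples of a group biological triplicates, and all of them come from 1 cell line. Each treatment had 1 deposited list of positions on hg38, without values for single libraries, so depth per sample is unknown and no replicate error can be given. The list for OSU-ERb-12 was matched to its samples through a name prefix alone. The sources used here state neither the direction of change in the listed regions nor the test that chose them. Intervals below are exact Clopper-Pearson 95% intervals and cover the counting of regions only. Since the members follow from overlaps of lists that may share vehicle libraries, differences between sets of regions are given as descriptions, without a test, and nothing is called particular to the members.

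Most prostate cancers depend on androgen signalling for growth, and enzalutamide is an antiandrogen used to treat them. Oestrogen receptor beta, the receptor that OSU-ERb-12 targets, is a hormone-activated transcription factor with DNA elements of its own. Nucleosome-free ATAC-seq fragments mark active promoters, which lie at gene starts and are often rich in GC and CpG, and enhancers, which lie within genes or between them and bind lineage factors such as FOXA1 and HOXB13.

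A larger share of members than of the combination or enzalutamide regions found in 1 list alone lay at gene starts. Of the 721 members on chromosomes for which RefSeq promoter windows were at hand, 157 (21.8%; 18.8 to 24.97) overlapped such a window. A window holds the 250 bases before a first base listed for a gene and the 50 bases from it. The share was 8.82% of enzalutamide regions in neither other list and 4.38% of combination regions in neither single-agent list. Regions in all 3 lists gave 16.8% (12.4 to 22.0), whose interval overlaps that of the members. The windows reached by members belonged to 145 protein-coding genes, 0.915% of the 15843 in the promoter table, and to 32 long non-coding RNA genes. Any shared base counted: in 89 of the 192 windows a member covered at least 150 bases, while at DUSP6 it covered 1.

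A few of these promoters show what the members cover. They were taken from genes of the pathway lists and from the promoters with most bases shared by the member, its enzalutamide region and the window. Each line gives the 250 bases before a first base listed for the gene, 5′ to 3′ on the gene's strand, from RefSeq on GRCh38.p14. Capitals mark the bases that lie in both the combination region and the enzalutamide region.
PROCR: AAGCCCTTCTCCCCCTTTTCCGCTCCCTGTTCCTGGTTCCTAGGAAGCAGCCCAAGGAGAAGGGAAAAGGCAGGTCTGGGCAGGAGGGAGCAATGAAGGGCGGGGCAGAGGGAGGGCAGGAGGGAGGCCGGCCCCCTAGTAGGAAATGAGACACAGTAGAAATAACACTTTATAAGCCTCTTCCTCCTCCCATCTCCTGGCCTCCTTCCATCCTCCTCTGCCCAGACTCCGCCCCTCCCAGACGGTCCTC
ADCK1: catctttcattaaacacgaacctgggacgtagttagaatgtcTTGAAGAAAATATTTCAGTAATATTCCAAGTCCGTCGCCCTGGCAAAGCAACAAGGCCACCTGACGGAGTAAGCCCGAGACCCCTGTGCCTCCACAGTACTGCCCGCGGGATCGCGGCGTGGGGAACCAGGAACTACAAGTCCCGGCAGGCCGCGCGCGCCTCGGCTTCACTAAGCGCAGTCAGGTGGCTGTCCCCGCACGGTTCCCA
SNX13: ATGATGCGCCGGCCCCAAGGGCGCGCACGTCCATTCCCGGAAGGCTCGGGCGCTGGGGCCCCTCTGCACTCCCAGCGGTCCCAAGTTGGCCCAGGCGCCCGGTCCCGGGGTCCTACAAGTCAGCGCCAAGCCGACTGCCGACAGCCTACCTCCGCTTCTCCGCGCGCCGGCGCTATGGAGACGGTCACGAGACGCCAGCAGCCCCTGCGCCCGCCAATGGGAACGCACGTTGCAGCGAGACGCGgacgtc
TJP3: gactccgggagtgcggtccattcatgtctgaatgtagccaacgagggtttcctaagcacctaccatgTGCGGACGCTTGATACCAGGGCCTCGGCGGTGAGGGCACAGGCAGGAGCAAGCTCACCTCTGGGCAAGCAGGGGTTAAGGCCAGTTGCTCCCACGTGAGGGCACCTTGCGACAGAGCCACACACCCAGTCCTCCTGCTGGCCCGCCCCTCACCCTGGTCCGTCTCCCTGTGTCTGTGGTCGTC
BCL2: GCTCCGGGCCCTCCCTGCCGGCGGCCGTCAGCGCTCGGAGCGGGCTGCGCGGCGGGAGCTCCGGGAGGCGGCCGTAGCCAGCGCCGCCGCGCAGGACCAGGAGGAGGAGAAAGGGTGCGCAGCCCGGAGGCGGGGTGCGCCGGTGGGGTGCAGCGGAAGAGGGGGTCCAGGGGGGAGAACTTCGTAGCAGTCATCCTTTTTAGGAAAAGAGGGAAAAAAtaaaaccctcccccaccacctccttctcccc
CCNE1: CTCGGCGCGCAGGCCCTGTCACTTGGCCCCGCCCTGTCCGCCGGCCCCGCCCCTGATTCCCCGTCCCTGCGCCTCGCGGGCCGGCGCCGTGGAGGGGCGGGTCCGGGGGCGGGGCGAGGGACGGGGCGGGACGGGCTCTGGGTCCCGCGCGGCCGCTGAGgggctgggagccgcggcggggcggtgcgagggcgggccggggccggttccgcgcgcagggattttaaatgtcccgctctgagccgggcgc

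The PROCR sequence, at chr20:35171822-35172071 on the plus strand, precedes the gene of the endothelial protein C receptor. All 250 of its bases lay in both regions, the member at 35171751 to 35172100 and the enzalutamide region at 35171701 to 35172150. ADCK1, a gene of a mitochondrial kinase-like protein, has its sequence at chr14:77799859-77800108 on the plus strand, with 208 bases in both regions. There the combination and enzalutamide regions had the same boundaries, 77799901 to 77800200. For SNX13, which encodes a sorting nexin of endosomal traffic, the sequence is chr7:17940495-17940744 on the minus strand, and 244 bases were shared.

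The TJP3 sequence, chr19:3708134-3708383 on the plus strand, precedes the gene of the tight junction protein ZO-3, and 183 of its bases were shared. BCL2, the founding inhibitor of apoptosis, has its sequence at chr18:63319770-63320019 on the minus strand. The member there, 63319801 to 63320050, lay within an enzalutamide region of 850 bp. RefSeq begins this minus-strand gene at 63320090, so both the sequence and the member lie inside it. The start used is a further one, listed within the gene. CCNE1 encodes cyclin E1, which drives entry into S phase, and its sequence is chr19:29811741-29811990 on the plus strand. Between the end of the shared part and the gene lay 90 bases, so the member covered the outer part of the window and not the start itself.

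The printed promoters differ in composition. GC content ran from 57.6% for ADCK1 to 81.2% for CCNE1, and the number of CpG dinucleotides from 5 for PROCR to 39 for CCNE1. The CCNE1 sequence held 7 GC boxes (GGGCGG on either strand), PROCR 2 and TJP3 1, while ADCK1, SNX13 and BCL2 held none. PROCR held a TATAAA match and SNX13 a CCAAT match. The members thus covered both CpG-rich promoters and, at PROCR, one with few CpG.

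Around protein-coding gene starts the members formed a narrow peak. The centres of 254 members (35.2%) lay within 1 kb of the nearest start, and 143 of these 254 (56.3%) within 250 bp of it. Among enzalutamide regions in neither other list 18.7% lay within 1 kb, of which 37.3% were within 250 bp. For combination regions in neither list the values were 8.17% and 44.9%, and for regions in all 3 lists 34.0% and 42.4%. The median centre of the members near a start was 45.5 bp after it, and the middle 50% ran from -200 to 251 bp, where a minus sign means before the start. For the enzalutamide regions in neither other list the median was 120 bp after the start, with a wider middle range of -220 to 436 bp. The bins with most members were those from 0 to 200 bp after the start, with 33 members (4.58%) per 100 bp.

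**Figure D1:**
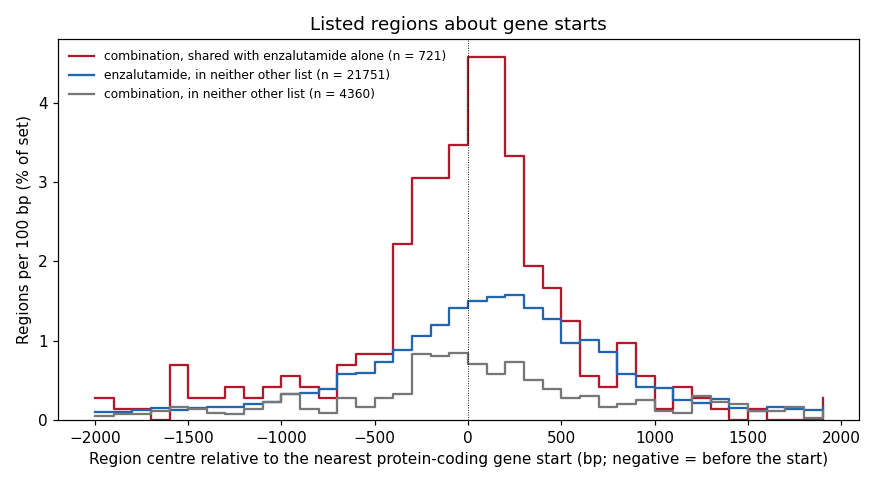
Share of regions in each 100 bp bin of the distance between the region's centre and the nearest protein-coding gene start, for members (n = 721), enzalutamide regions in neither other list (n = 21751) and combination regions in neither single-agent list (n = 4360). The line of the members is highest from 0 to 200 bp after the start, at 4.58% per bin, and lies above the other lines close to the start.

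Counting both ends of protein-coding genes, 287 of the 756 members (38.0%; 34.5 to 41.5) lay within 1 kb of a gene end. The share was 38.7% of the 261 regions in all 3 lists, 12.8% of those shared with OSU-ERb-12 alone, 517 of the 4698 in neither list (10.1 to 11.9%) and 21.5% of the 23003 enzalutamide regions in neither other list. The members were thus close to the regions in all 3 lists, whose interval was 32.8 to 44.9. Within 1 kb of a start listed with a promoter window lay 258 of 721 members (35.8%). Those starts include some inside genes and lack some genes, so the 258 are not a part of the 287. Of all 756 members, 244 (32.3%) lay away from gene ends in the body of a protein-coding gene. A further 65 (8.60%) lay in another annotated gene and 160 (21.2%) in no annotated gene. Some gene-body members lay close to a start listed inside the gene, as at FOXP1, where the centre was 24 bp before it.

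**Figure D2:**
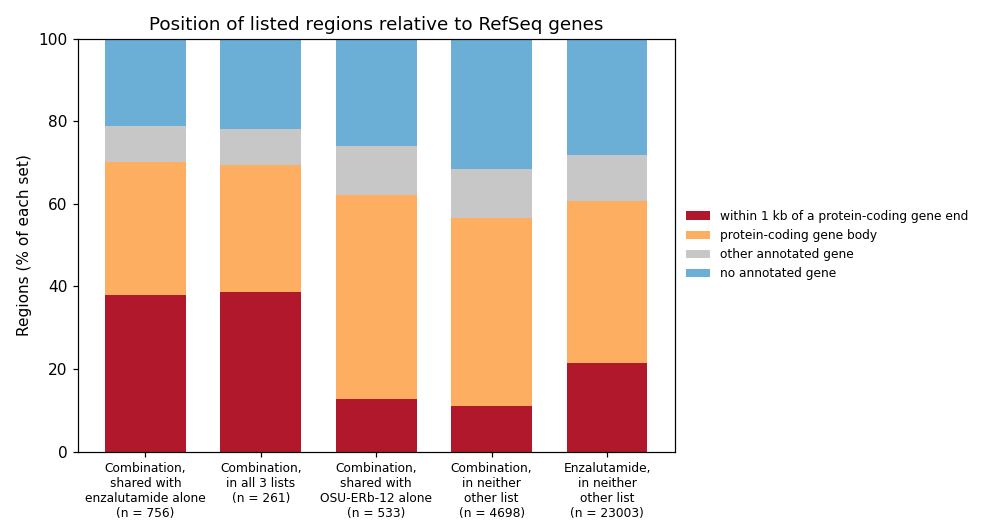
Percentage of regions at a protein-coding gene end (within 1 kb), in the body of such a gene, in another annotated gene or in none, for 5 sets of regions with n under each bar. Gene-end regions make up 38.0% of the members and 38.7% of regions in all 3 lists, against 517 of the 4698 combination regions in neither list.

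Gene-end shares are also given by region width. Wider regions touch other regions and gene ends more easily, and whether width has a part in the differences was not tested. Of the 449 members of 200 bp, the shortest width in the lists, 38.5% (34.0 to 43.2) lay at a gene end, and of the 81 members of 350 bp or more 35.8% (25.5 to 47.2) did. Combination regions in neither list gave 10.7% at 200 bp and 12.8% at 350 bp or more, and enzalutamide regions in neither other list 20.3% and 25.4%. Regions in all 3 lists gave 39.5% and 38.9%, close to the members. Seen from the enzalutamide list, a member overlapped 5.15% of enzalutamide regions at gene ends and 2.37% of the others. The same order was seen in all 4 width classes, with 3.34% against 1.83% at 200 bp, and 8.55% against 3.79% at 350 bp or more.

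How a member lay against its enzalutamide region follows in part from the rule and is given as a description. The 756 members met 757 distinct enzalutamide regions, 2.99% of the 25317 in that list, and 1 member met 2 of them. In 332 cases (43.9%) the member lay inside a wider enzalutamide region, in 139 (18.4%) both lists gave the same boundaries, in 87 (11.5%) the member contained the enzalutamide region, and in 198 (26.2%) the regions overlapped in part. In all, 471 members (62.3%; 58.7 to 65.8) were covered over their whole length. At gene ends 68.3% of members were covered over their whole length, and elsewhere 58.6%.

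By median, the enzalutamide regions were wider than the members. Their median was 300 bp against 200 bp, and 392 of 757 (51.8%) were 300 bp or wider, against 35.6% of enzalutamide regions in neither other list. Members measured 200 to 750 bp, with 59.4% at 200 bp, against 71.3% of combination regions in neither list. The rule asks for an overlap and wider regions touch others more easily, so both contrasts follow in part from the rule. A member overlapped 2.14% of all enzalutamide regions of 200 bp and 5.08% of those of 350 bp or more. The widest member, 750 bp at 32010001 to 32010750 on chromosome 2, lay at MEMO1, a gene of cell motility, within an enzalutamide region of 950 bp. PYGB, the brain glycogen phosphorylase gene, held a member of 650 bp on chromosome 20 (25248001 to 25248650) that began at the same base as its enzalutamide region of 750 bp. The widest enzalutamide region met by a member was 1550 bp at KTN1, the kinectin gene on chromosome 14, and the member covered 200 bp of it.

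**Figure D3:**
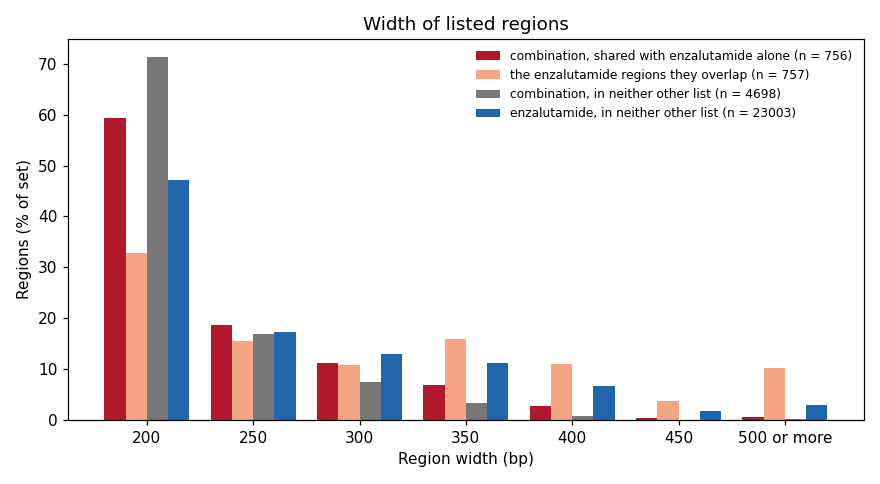
Percentage of regions by width, in steps of 50 bp with 500 bp or more in the last class, for members (n = 756), the enzalutamide regions they overlap (n = 757), combination regions in neither list (n = 4698) and enzalutamide regions in neither other list (n = 23003). Regions of 200 bp make up 59.4% of members and 32.8% of the enzalutamide regions they overlap, of which 10.3% are 500 bp or wider.

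Boundaries lie on a 50 bp grid, so the closest calls differ by 1 step. Just inside the rule, 29 members shared only 50 bp with their enzalutamide region, among them the region at the promoter of PTGS2, the inducible cyclooxygenase gene. Just outside, 23 of the 5231 combination regions without an enzalutamide overlap abutted an enzalutamide region without a shared base, and 190 lay within 500 bp of one. On the side of OSU-ERb-12, 2 members abutted a listed region and 21 (2.78%) lay within 500 bp of one, while the median distance was 36000 bp.

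Members were spread thinly over genes. With a locus taken as a gene extended by 10 kb at each end, 800 of 20037 protein-coding genes (3.99%) held a member in theirs. Of these, 776 held 1, 23 held 2 and 1 held 3. A member within 1 kb of the gene's own end was present at 324 genes (1.62%). Only 5 pairs of members lay within 10 kb of each other, at ACTN1, SIN3A, LDB3, LDLRAD4 and the histone genes H1-4 and H2BC5. GRIP2, which encodes a scaffold protein for glutamate receptors, was the gene with 3, at 14487501 to 14487750, 14511951 to 14512150 and 14540501 to 14540700 on chromosome 3. They were 3 of the 5 combination regions in its locus, which also held 4 enzalutamide and 3 OSU-ERb-12 regions.

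The list of named genes was limited to 10 by number of members, so of the 23 genes with 2 members it holds 9: H1-4, PRR13, EML3, TRIP10, KDSR, SPMIP4, NOP9, TJP3 and CHL1. H1-4 is a replication-dependent linker histone gene, whose member at 26156201 to 26156500 on chromosome 6 spanned the gene's first base and shared 150 bp with its enzalutamide region. The other member in its locus, at 26158401 to 26158600, had its centre 379 bp after the start of the core histone gene H2BC5. In the locus of KDSR, a sphingolipid synthesis gene, a member lay on its own start at 63367101 to 63367350 on chromosome 18. The other was the member at the inner listed start of BCL2. TJP3 held members at 2 of its listed starts, 3708201 to 3708450 and 3721401 to 3721600. CHL1, a neural adhesion gene, held a member at its start (196601 to 196850 on chromosome 3) and one within the gene.

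Among the prostate lineage factors 4 of 18 genes held a member in the locus (22.2%; 6.41 to 47.6), where 3.99% of all protein-coding genes did. At FOXA1, a pioneer factor that opens chromatin for other factors, the member lay 601 bp outside the gene, beyond its far end rather than at its start. The HOXB13 member lay 3662 bp from that gene and nearest to the start of PRAC1. The MYC member, 127735751 to 127735950 on chromosome 8, had the same boundaries in both lists. GRHL2, an epithelial grainyhead factor, held one within the gene that shared only 50 bp with the enzalutamide region. Of these 18 genes 15 held an enzalutamide region and 6 a combination region, counts for which no share over all genes is given here. ESR1, ESR2, KLK2, KLK3, TMPRSS2 and FKBP5 held no member.

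Of 40 androgen response genes 4 held a member (10.0%; 2.79 to 23.7), where 3.99% of all protein-coding genes did. The loci of this list had a median length of 67.6 kb, against 44.1 kb over all protein-coding genes. Whether locus length has a part was not tested. STEAP2, a metalloreductase gene, and MAF, a bZIP factor gene, held theirs at a gene end, the STEAP2 region at 90212151 to 90212350 on chromosome 7 with its centre 511 bp after a listed start. The HPGD member lay 1357 bp outside this prostaglandin dehydrogenase gene, and the ANKH member lay within the gene. In the loci of these 40 genes, 30 had an enzalutamide region and 8 a combination region, again without a share over all genes to set beside them. The kallikrein genes KLK2 and KLK3, classical androgen-induced genes, were not among the 4.

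Members lay at 3 of 30 cell cycle genes (10.0%; 2.11 to 26.5), against 3.99% of all protein-coding genes: CCNE1, AURKA, the mitotic kinase gene, whose region at 56392401 to 56392600 on chromosome 20 had its centre 122 bp after the start of its neighbour CSTF1, and PCNA, 2152 bp outside the gene. Of 23 genes of the p53 pathway and apoptosis 2 held a member (8.70%; 1.07 to 28.0), BCL2 and the stress gene GADD45A (67685801 to 67686000 on chromosome 1). BCL2 was also the only one of 24 oestrogen response genes with a member. The AP-1 and immediate early genes gave 3 of 18, with FOSL2 at its start (28392451 to 28392700 on chromosome 2), MYC, and EGR3, 1470 bp outside that gene.

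Chromatin regulators gave 5 of 30 genes (16.7%; 5.64 to 34.7), where 3.99% of all protein-coding genes held a member. Their loci had a median length of 96.8 kb, against 44.1 kb over all protein-coding genes. At KDM6B, an H3K27 demethylase gene, the member at 7834201 to 7834400 on chromosome 17 had the same boundaries in both lists, with its centre 84 bp after the start. HDAC2, a histone deacetylase gene, held an identical pair at 113971451 to 113971650 on chromosome 6, and the DNA methyltransferase gene DNMT3A an identical pair within the gene. SMARCC2, of the SWI/SNF remodelling complex, held one within the gene, and SMARCC1 one 7357 bp outside. Replication-dependent histone genes gave 4 of 18 (22.2%; 6.41 to 47.6), beside the same 3.99%. These came from 3 regions, since H1-4 and H2BC5 lie in each other's loci and H2AC20 and H2BC21 share 1 member.

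For the lists of housekeeping machinery the share to set beside each count is again the 3.99% of all protein-coding genes. Splicing factors gave 3 of 31 (9.68%; 2.04 to 25.8), of which SF3A1 held its member at the start it shares with CCDC157 (30356901 to 30357150 on chromosome 22). The next 6 lists gave 1 gene each, a share close to that of all genes: ribosomal proteins 1 of 31 (RPS14), translation factors 1 of 25 (EIF1), respiratory chain genes 1 of 30 (CYCS), heat shock and unfolded protein response genes 1 of 26 (ATF4), proteasome genes 1 of 27 (PSMC5) and DNA repair genes 1 of 25 (XRCC6). Nuclear receptors and coregulators gave 2 of 41, NR2F1 and NCOR1, and Wnt genes 2 of 20, GSK3B and LEF1. The NCOR1 member lay 1766 bp outside this corepressor gene and 191 bp after the start of PIGL. No member lay in the loci of the 16 glucocorticoid response, 14 luminal, 14 basal, 18 neuroendocrine and 20 glycolysis genes. The upper ends of their intervals, from 16.8 to 23.2%, lie above the 3.99% of all genes, so these lists are too short to differ from it. Of their genes 11, 9, 7, 12 and 17 held an enzalutamide region, for which no share over all genes is given here. Over all lists 37 of 519 genes held a member (7.13%; 5.07 to 9.69).

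Beyond the lists, and named here after their positions were seen, members reached promoter windows of signalling and transcription genes. TFAP2A, an epithelial transcription factor gene, had 141 of its 300 window bases in a member, and NFYA, a subunit gene of the factor that binds CCAAT boxes, 173. The receptor genes FGFR4 and GHR had 136 and 200 window bases in a member, all of them also in the enzalutamide region. At JUP, the plakoglobin gene, 200 bases were covered and both lists gave 41786001 to 41786200 on chromosome 17. NQO1, a quinone reductase gene of the oxidative stress response, and its divergent transcript NQO1-DT were both covered over 200 bases by the member at 69726551 to 69726750 on chromosome 16.

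Of the 157 members over a promoter window, 19 lay over windows of more than 1 gene, in 18 cases on opposite strands. Besides NQO1 and SF3A1, they included SIRT2 with NFKBIB on chromosome 19, OARD1 with NFYA on chromosome 6, RPS27A with CLHC1 on chromosome 2 and DNAAF6 with NUP62CL on X. The coverage could be slight, with 2 window bases of RPS27A, 7 of CLHC1 and 14 of OARD1 in the member. In such places the lists cannot tell which gene the region belongs to. How often other listed regions lie over windows of more than 1 gene was not counted.

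The windows reached by members were rich in GC and CpG, as were the windows reached by other listed regions. Median GC content was 67.3% in the 192 windows at members (middle 50% from 60.7 to 74.7), 66.3% in the 2354 windows at enzalutamide regions in neither other list, 66.3% in the 247 at combination regions in neither list and 62.3% in all 22199 protein-coding windows. The median number of CpG was 26 at members, 27 in both of those other sets and 21 in all protein-coding windows. Windows of long non-coding RNA genes made up 17.2% at members and 36.8% of the whole table of 35116 windows. The other listed regions were also below the table. Their shares were 20.9% at enzalutamide regions in neither other list and 23.1% at combination regions in neither list. Regions in all 3 lists gave 22.2%, and those shared with OSU-ERb-12 alone 19.4%.

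Short motifs were searched on both strands of the 300-base windows, and none of the 12 letter strings contains another. A match describes letters and not a bound site, and it may lie in a part of the window outside the member. The GC box GGGCGG, recognised by SP and KLF factors, was present in 146 of 192 member windows (76.0%; 69.4 to 81.9). It was present in 69.6% (67.7 to 71.4) of windows at enzalutamide regions in neither other list, in 66.8% (60.5 to 72.6) of those at combination regions in neither list, in 56.3% of all protein-coding windows and in 45.0% of all windows. These shares were not compared by a test.

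Receptor hexamers were found in few of the member windows. These windows had a higher median GC content than all protein-coding windows, and whether composition has a part was not tested. Members outside promoter windows were not searched. AGAACA, the hexamer recognised by the glucocorticoid receptor and related steroid receptors, was present in 13 member windows (6.77%; 3.65 to 11.3), in 8.33% of windows at enzalutamide regions in neither other list and in 11.7% of all protein-coding windows. AGGTCA, the hexamer of oestrogen receptors and many other nuclear receptors, was also present in 13 member windows, against 8.75% and 11.9%. Over all windows the shares of these hexamers were 14.8% and 13.8%. TATAAA, the core of the TATA box, was in 5.73% of member windows, in 5.40% of windows at enzalutamide regions in neither other list, in 1.62% of those at combination regions in neither list, in 9.47% of protein-coding windows and in 11.5% of all windows.

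The remaining strings are given for member windows against all windows. The CCAAT box, bound by NF-Y, was in 36.5% of member windows against 34.6%, and the E-box CACGTG in 8.33% against 7.26%. The ETS string CCGGAAGT was in 6.77% against 4.14%, the CRE string TGACGTCA in 3.65% against 1.85%, and the YY1 string AAGATGGCG in 3.65% against 1.75%. The AP-1 string TGANTCA was in 4.17% against 7.71%, the forkhead string TGTTTAC in 2.08% against 3.42% and the NRF1 string GCGCATGC in 2.60% against 3.05%. In protein-coding windows alone the shares were 34.7, 8.34, 5.34, 2.26, 2.41, 6.15, 2.85 and 3.74%, in the order of the strings above. Windows at combination regions in neither list gave, in that order, 38.9, 8.91, 10.5, 3.64, 4.05, 4.86, 3.64 and 4.86%. Those at enzalutamide regions in neither other list gave 30.9, 8.88, 5.35, 2.85, 2.80, 5.18, 2.63 and 4.29%. For ETS, CRE, YY1 and AP-1, both of these sets lay on the same side of all windows as the members. Each of these strings other than the CCAAT box was found in 16 member windows or fewer, so the shares rest on few windows.

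**Figure D4:**
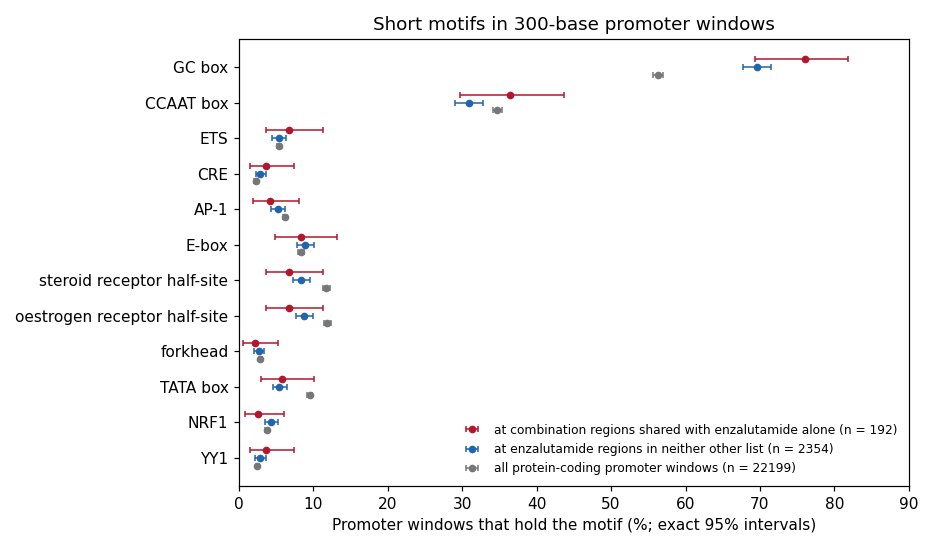
Percentage of 300-base promoter windows that hold each of 12 short motifs on either strand, with exact 95% intervals, for windows at members (n = 192), at enzalutamide regions in neither other list (n = 2354) and all protein-coding windows (n = 22199). The GC box is in 76.0%, 69.6% and 56.3% of them, and the steroid receptor hexamer AGAACA in 6.77%, 8.33% and 11.7%.

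The share of combination regions that were members differed between chromosomes, which were grouped after their region counts were known. It was 8.96% (7.92 to 10.1) on chromosomes 1, 3, 7, 8 and 12, 14.1% (12.9 to 15.3) on the other autosomes and 44.3% (31.6 to 57.6) on X. The first group held 2779 combination regions, 29.6 per 100 enzalutamide regions, the other autosomes 22.3 per 100, and X only 61, or 9.58 per 100. Seen from the enzalutamide list, members overlapped 2.66%, 3.14% and 4.24% of its regions, so the groups lay closer together by that measure. X held few OSU-ERb-12 regions, 107 in all. Among combination regions on X with an enzalutamide overlap, 7 of 34 were also in the OSU-ERb-12 list, against 158 of 637 on the other autosomes.

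Of the 27 members on X, 14 lay at a gene end. At RPS4X, a ribosomal protein gene, the member at 72277301 to 72277500 covered 198 window bases within an enzalutamide region of 400 bp. PLS3, which encodes an actin-bundling protein, held its member at 115561101 to 115561300 within an enzalutamide region of 1050 bp, and OTUD5, a deubiquitinase gene, at 48958251 to 48958450. Gene-end members made up 29.3% (23.7 to 35.4) of the members on chromosomes 1, 3, 7, 8 and 12 and 41.5% (37.1 to 46.1) on the other autosomes. Per length of chromosome, members were most frequent on chromosome 19, with 48 members or 0.819 per Mb, 24 of them at a gene end.

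**Figure D5:**
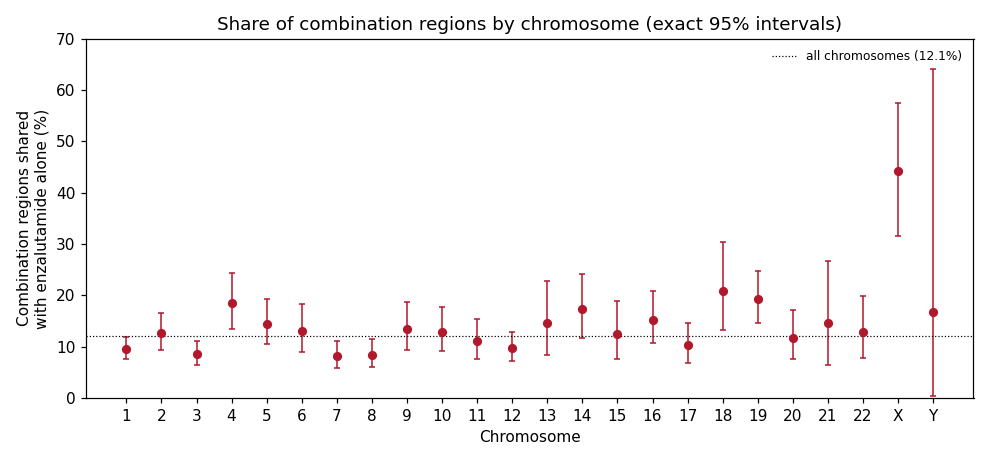
Percentage of combination regions on each chromosome that are shared with enzalutamide alone, with exact 95% intervals; the dotted line is the share over all chromosomes, 12.1%. X, with 27 of 61 regions, stands at 44.3%, and chromosomes 1, 3, 7, 8 and 12 have the lowest shares.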

How the data were processed

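The 3 lists, 1 per treatment, were assigned by the prefix each has in common with sample titles; OSU-ERb-12 has the prefix WT, whose meaning is not stated. Nucleosome-free reads were separated with ATACSeqQC, per the labels' protocols. The submitters' processing notes name FastQC, Trimmomatic and hg38. No source used here gives the peak caller, test, pooling, direction or Tn5 offset. The deposited score is 0 in every row, so regions were not ranked.

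Overlaps, gene ends (1 kb either side) and loci (10 kb either side) were computed in Python 3.11.15 with pandas 2.3.3 and scipy 1.17.1 against RefSeq genes of GRCh38.p14, the same build, and the overlap code was tested on simulated data. Promoter windows of RefSeq covered 15843 protein-coding genes and none on chromosome 8, and a gene may have several. The members and the 22 gene lists were chosen with earlier results of these data known. Named genes are those with most members, up to 4 per list, a fixed set of genes, some of which are not reported here, the promoters with most shared bases and the widest regions; the text prints those that lead.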

Additional observations from a re-analysis of the deposited data

How the results depend on the processing

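No paired analysis was possible because the lists hold no value per library, and for the same reason no replicate could be left out. Of 31 alternatives 18 stayed within the interval of the value, or within 1.5 times a count. The 756 members became 139 with identical boundaries and 264 with regions wider than 200 bp alone. Their gene-end share of 38.0% was 30.7% within 500 bp, 50.8% within 5 kb and, in a setting chosen after seeing the data, 42.2% without chromosomes 1, 3, 7, 8 and 12. Within 500 bp the share was 7.94% for combination regions in neither list and 15.3% for enzalutamide regions in neither other list, and within 5 kb 23.9% and 34.1%. Genes with a member numbered 800, with the gene body alone 450, with 50 kb either side 1597 and with identical boundaries 146; list genes numbered 37, 14, 62 and 7 in the same order, the last added after seeing the data. With identical boundaries 68.6% of 35 windows held a GC box and 0 the AGAACA hexamer. Depth is unknown and limits every list; whether a region missing from a list was unchanged was not tested.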

Other observations

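Some members lay within 1 kb of annotated miRNA hairpins, given here as positions only, without a share over all annotated hairpins. The hairpins of MIR6791, inside the GPR108 locus on chromosome 19, and MIR7706, at AKAP13 on chromosome 15, lay within a member, and that of MIR3960 at CDK9 on chromosome 9 overlapped one. The MIR148A hairpin lay 464 bp from the member at 25950451 to 25950650 on chromosome 7. MIR212 and MIR132, which form 1 cluster on chromosome 17, lay 520 and 892 bp from the member at 2050901 to 2051100, next to HIC1. These genes were picked out after their positions were seen, and the lists do not show whether their transcription changed.

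Zinc finger genes named ZNF with a number made up 6 of the 145 protein-coding genes whose promoter window a member reached (4.14%; 1.53 to 8.79), and 2.56% of the 15843 in the table. The 6 were ZNF69, ZNF180, ZNF181 and ZNF564 on chromosome 19, ZNF664 on chromosome 12 and ZNF670 on chromosome 1.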
